A study of Mus musculus with 14 samples.

Results

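The regions described here are the H3K27ac and H3K9me3 ChIP-seq regions that lie in 3 clusters of zinc finger genes of the mouse genome (mm10). A listed region was a member when its midpoint lay in chr2:175000001-178000000, chr4:145000001-148000000 or chr13:65000001-68000000. This gave 3715 of the 334162 regions in the 4 histone lists. The H3K27ac lists contributed 752 members after doxorubicin and 854 after vehicle, and the H3K9me3 lists 1037 after doxorubicin and 1072 after vehicle.

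The cells were E14 mouse embryonic stem cells grown on gelatin in 2i and LIF medium. They received 1 µM doxorubicin, which poisons topoisomerase II and breaks DNA, or DMSO vehicle for 6 h. After a 6 h washout they were harvested 12 h after the start of treatment and fixed with 1% formaldehyde for 10 min. Chromatin was immunoprecipitated for H3K27ac, an acetylation found on active regulatory DNA, and for H3K9me3, a methylation of silent chromatin, each after doxorubicin and after vehicle. HA antibody was used on cells whose p53 carried an HA tag and on cells without it, and input chromatin came from doxorubicin-treated cells, 14 libraries in 7 groups of 2. Whether the HA cells were given doxorubicin is not stated in their titles, and no vehicle input was used here. Each group is 1 peak list called on its pooled libraries. No comparison below therefore has a replicate check or a p-value, and the 95% intervals cover counting error only. The H3K27ac lists rested on 17036528 kept fragments after doxorubicin and 20647895 after vehicle, and the H3K9me3 lists on 14402634 and 15992125. Signal is given in FPM, the fragments piled up at the highest summit of a region per 1000000 kept fragments of its list.

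KRAB zinc finger genes form one of the largest families of transcription factors in mammals and have spread by tandem duplication into clusters. A KRAB protein binds DNA through its array of C2H2 zinc fingers, often at transposable elements. Its KRAB domain recruits Trim28, and with it Setdb1, which trimethylates H3K9. The clusters themselves are known to carry H3K9me3 while many of their genes stay expressed in embryonic stem cells. The annotation gave 51 protein-coding genes with a zinc finger symbol in the windows, 7 on chromosome 2, 17 on chromosome 4 and 27 on chromosome 13. A further 42 had provisional symbols and 16 other symbols. No protein sequences were used here, so the KRAB domain of these genes was not checked.

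Near-identical promoters were frequent in the chromosome 2 cluster. A promoter is taken here as the 300 bases from 250 before to 50 after a RefSeq start (GRCm38.p6, the assembly behind mm10). Of 47 promoter entries in the chromosome 2 window, 21 (44.7%) shared at least 90% of their 50-base words with a promoter of another gene. The number was 2 of 40 on chromosome 4, 0 of 67 on chromosome 13 and 636 of 32851 (1.94%) over all entries. The next sequences, 5′ to 3′, are shown because reads from such copies can be placed at the wrong one. They are Zfp970 (chr2:177464492-177464791, plus strand), Zfp967 (chr2:176520754-176521053, plus strand), Zfp965 (chr2:175469775-175470074, plus strand) and Zfp973 (chr2:176670272-176670571, plus strand). Capitals mark bases that differ from Zfp970 in an ungapped alignment.
Zfp970: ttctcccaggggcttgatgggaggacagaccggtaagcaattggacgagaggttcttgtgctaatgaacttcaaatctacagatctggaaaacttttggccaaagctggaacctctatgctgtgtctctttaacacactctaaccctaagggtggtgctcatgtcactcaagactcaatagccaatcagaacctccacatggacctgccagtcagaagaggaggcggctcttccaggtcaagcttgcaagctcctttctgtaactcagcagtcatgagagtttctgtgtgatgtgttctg
Zfp967: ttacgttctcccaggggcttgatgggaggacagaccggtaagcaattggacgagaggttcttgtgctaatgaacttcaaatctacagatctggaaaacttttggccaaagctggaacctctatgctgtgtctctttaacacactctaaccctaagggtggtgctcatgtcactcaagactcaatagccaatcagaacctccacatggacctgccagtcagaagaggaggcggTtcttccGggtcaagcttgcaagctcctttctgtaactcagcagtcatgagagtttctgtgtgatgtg
Zfp965: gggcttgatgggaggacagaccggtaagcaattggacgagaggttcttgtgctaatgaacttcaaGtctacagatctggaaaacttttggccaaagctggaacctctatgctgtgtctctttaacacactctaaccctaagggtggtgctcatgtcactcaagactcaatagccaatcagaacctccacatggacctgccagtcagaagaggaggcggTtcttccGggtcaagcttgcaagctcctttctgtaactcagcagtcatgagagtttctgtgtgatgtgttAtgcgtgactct
Zfp973: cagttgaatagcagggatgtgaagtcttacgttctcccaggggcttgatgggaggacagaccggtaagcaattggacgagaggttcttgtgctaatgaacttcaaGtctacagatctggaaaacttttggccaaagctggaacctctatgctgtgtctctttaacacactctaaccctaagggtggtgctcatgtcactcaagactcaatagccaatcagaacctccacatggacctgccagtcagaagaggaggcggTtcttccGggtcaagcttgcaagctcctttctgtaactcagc
Over the aligned bases, identity to Zfp970 was 99.3% for Zfp967, 98.6% for Zfp965 and 98.9% for Zfp973. Zfp966 and Zfp967 shared all 300 bases. Zfp972, at the far end of the window, had 65.2%. The H3K27ac values of the near-identical promoters below are therefore uncertain as to which copy they belong to.

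The promoters of the other clusters were more diverse. Rex2 (chr4:147021600-147021899, plus strand), Zfp534 (chr4:147702582-147702881, minus strand) and Zfp984 (chr4:147809739-147810038, minus strand) are shown because their H3K27ac was lower after doxorubicin. Zfp874a (chr13:67451575-67451874, minus strand) is shown because its H3K27ac was higher there and a p53 region lay beside it. Capitals mark CpG.
Rex2: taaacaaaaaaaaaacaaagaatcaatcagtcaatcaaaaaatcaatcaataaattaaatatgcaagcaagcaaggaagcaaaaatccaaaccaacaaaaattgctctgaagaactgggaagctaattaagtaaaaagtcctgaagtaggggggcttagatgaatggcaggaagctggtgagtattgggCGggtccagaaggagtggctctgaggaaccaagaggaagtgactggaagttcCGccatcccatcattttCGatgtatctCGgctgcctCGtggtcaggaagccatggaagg
Zfp534: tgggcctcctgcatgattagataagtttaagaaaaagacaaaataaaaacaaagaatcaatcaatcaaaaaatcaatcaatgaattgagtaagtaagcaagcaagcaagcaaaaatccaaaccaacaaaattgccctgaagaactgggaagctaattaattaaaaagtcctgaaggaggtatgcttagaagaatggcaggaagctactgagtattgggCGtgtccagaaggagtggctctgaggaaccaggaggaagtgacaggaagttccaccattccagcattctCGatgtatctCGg
Zfp984: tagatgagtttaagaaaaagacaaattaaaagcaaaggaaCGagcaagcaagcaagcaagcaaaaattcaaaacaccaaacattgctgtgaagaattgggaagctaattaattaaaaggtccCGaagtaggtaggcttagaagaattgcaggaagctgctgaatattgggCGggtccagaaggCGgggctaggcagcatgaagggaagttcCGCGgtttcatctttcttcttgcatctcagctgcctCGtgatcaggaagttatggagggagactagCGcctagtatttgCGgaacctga
Zfp874a: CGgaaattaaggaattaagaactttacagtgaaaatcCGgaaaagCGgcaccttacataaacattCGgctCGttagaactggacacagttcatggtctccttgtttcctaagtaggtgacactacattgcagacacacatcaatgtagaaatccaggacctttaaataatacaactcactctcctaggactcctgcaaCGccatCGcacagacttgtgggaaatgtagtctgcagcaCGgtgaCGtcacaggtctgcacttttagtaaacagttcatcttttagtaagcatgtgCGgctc
The longest run of bases in common was 28 between Rex2 and Zfp534, 20 between Rex2 and Zfp984 and 22 between Zfp534 and Zfp984. Rex2 and Zfp874a shared at most 8. The letters CCAAT, on either strand, stood in 7 of 7 zinc finger promoters on chromosome 2, 12 of 16 on chromosome 4 and 7 of 24 on chromosome 13, and in 37.4% of all promoters.

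Signal without a histone antibody was densest in the chromosome 4 cluster. That window held 322 of the 2236 regions of the input list (14.4%) and 464 of the 3979 of the untagged HA list (11.7%). The chromosome 13 window held 59 and 135, and the chromosome 2 window 0 and 1. Among 892 other windows of 3 Mb that tile the genome, the median was 0 input regions, and 0 windows had as many as 322. The input regions of chromosome 4 ran from 145390334 to 147809994. Of its H3K27ac regions, 49.5% overlapped an input region after doxorubicin and 51.9% after vehicle, and of its H3K9me3 regions 39.6% after doxorubicin and 39.4% after vehicle. Chromosome 13 had 16.5% after doxorubicin and 16.1% after vehicle for H3K27ac, and 9.71% and 9.67% for H3K9me3. Over the whole genome they were 1.13% to 2.28%. At these chromosome 4 regions the H3K27ac summit was a median of 1.14 times the input summit after doxorubicin and 0.954 times after vehicle, where 121 of 230 regions lay below the input. H3K9me3 stood at 1.75 times the input after doxorubicin and 1.51 times after vehicle. Region counts, covered lengths, treatment-only shares, shares of loci past 1.5-fold and overlaps between the marks are therefore also given without these regions. Results for genes, positions in genes, promoters and p53 regions include them.

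**Figure D1:**
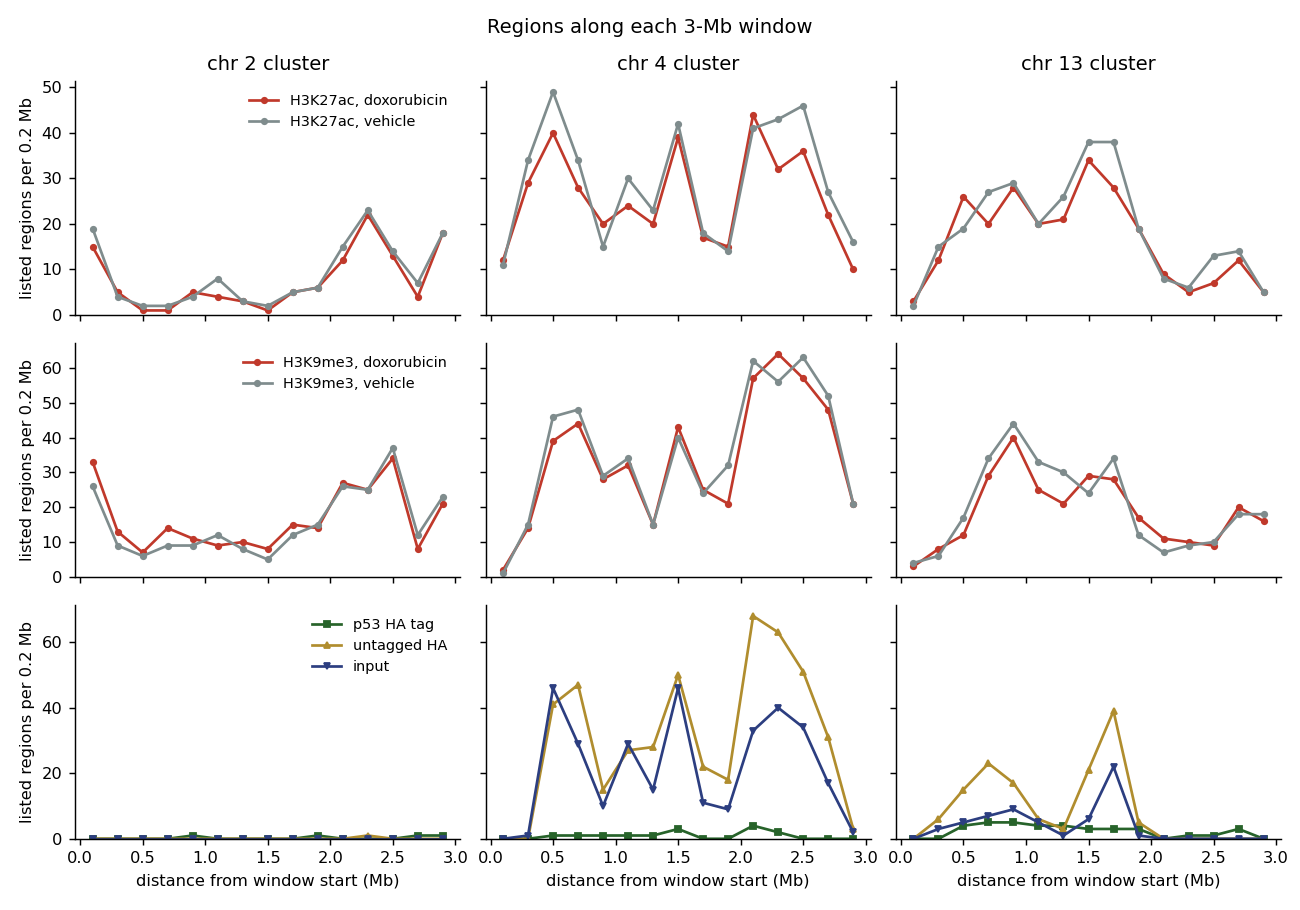
Number of listed regions per 0.2 Mb (y axis) against distance from the start of each 3-Mb window (x axis, Mb), with 1 pooled list per line: H3K27ac after doxorubicin and vehicle (top), H3K9me3 after doxorubicin and vehicle (middle), and p53, untagged HA and input (bottom). On chromosome 4 the untagged and input lines follow the histone lines along most of the window, with 322 input regions in all, while the chromosome 2 window has 0 input regions.

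H3K27ac covered less of all 3 clusters after doxorubicin, while it covered more of the genome as a whole. The mark covered 81.9 kb of the chromosome 2 window after doxorubicin and 122.3 kb after vehicle, a ratio of 0.670. It covered 341.2 kb and 461.2 kb on chromosome 4 (0.740) and 207.3 kb and 255.0 kb on chromosome 13 (0.813), doxorubicin before vehicle. Over the whole genome the ratio was 1.22. Both lists covered 511.7 kb of the clusters together, the doxorubicin list alone 119.0 kb and the vehicle list alone 327.0 kb. Only 1 of 495 other 3-Mb windows with at least 50 regions in each list had a ratio as low as chromosome 2, and 8 and 25 had one as low as chromosome 4 and chromosome 13.

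The number of H3K27ac regions moved in the same direction, by less. There were 115 regions after doxorubicin and 132 after vehicle on chromosome 2, a ratio of 0.871 (0.673 to 1.13). Chromosome 4 had 388 and 443 (0.876, 0.762 to 1.01) and chromosome 13 had 249 and 279 (0.892, 0.749 to 1.06). Each of these intervals includes 1, and the interval of the 3 clusters together, 0.881 (0.797 to 0.972), does not. The whole genome had 112259 and 82177 regions, a ratio of 1.37. Without regions over an input region the ratio of numbers was 0.920 on chromosome 4 and 0.889 on chromosome 13, and the ratio of covered length 0.803 and 0.791. The doxorubicin list had fewer fragments than the vehicle list, and the part of that in these ratios was not tested. The genome-wide ratio came from the same lists, and the part of depth in it was not tested either. The median summit of the listed regions was 1.06 FPM after doxorubicin and 0.920 after vehicle.

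**Figure D2:**
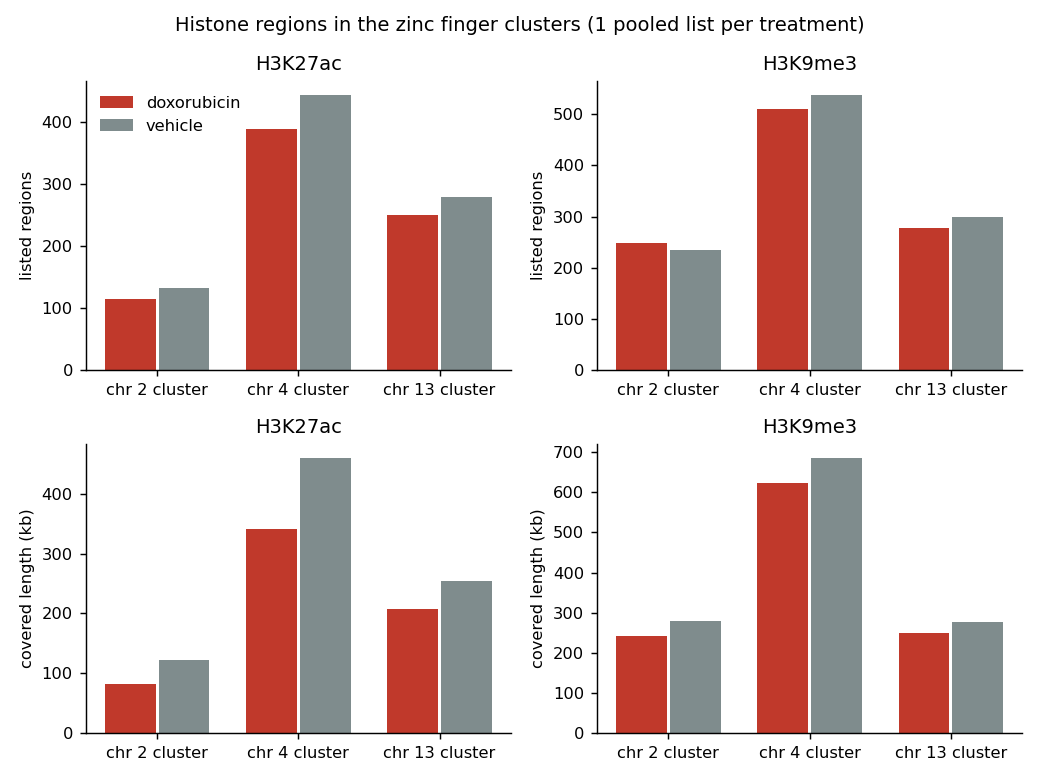
Number of listed regions (top) and covered length in kb (bottom) of H3K27ac (left) and H3K9me3 (right) in each cluster, with a bar for the pooled doxorubicin list and a bar for the pooled vehicle list; there are no error bars because each bar is 1 list. Doxorubicin bars are the lower ones for H3K27ac throughout and for H3K9me3 in covered length, with 249 against 234 H3K9me3 regions on chromosome 2 as the one higher count.

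H3K27ac regions listed after doxorubicin only were fewer than those listed after vehicle only in each cluster. Of the 752 H3K27ac members after doxorubicin, 124 (16.5%) had no vehicle region, against 46.5% over the whole genome. Of the 854 after vehicle, 271 (31.7%) had no doxorubicin region, against 28.8% over the whole genome. Doxorubicin-only regions numbered 18, 64 and 42 on chromosomes 2, 4 and 13, and vehicle-only regions 39, 153 and 79. The clusters thus held a smaller share of doxorubicin-only regions than the genome, also without input regions (21.4%, 18.1 to 25.1). The interval of their vehicle-only share (28.7 to 34.9) reached the genome-wide 28.8%. By cluster this share was 29.5% on chromosome 2, 34.5% (30.3 to 39.1) on chromosome 4 and 28.3% on chromosome 13. Without input regions the vehicle-only share of the clusters was 35.6% (31.8 to 39.6), above the genome-wide share. Chromosome 4 then had 44.6% (38.1 to 51.3) and chromosome 13 30.8% (25.2 to 37.0). A region that is not listed fell short of the caller's threshold, which does not show that the mark was absent.

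Where both lists had H3K27ac, the amount differed little between treatments. Overlapping regions of both lists were joined into loci, and the highest summit of each list was compared at each. The median log2 ratio of doxorubicin over vehicle was -0.15 at 93 loci on chromosome 2, -0.01 at 280 on chromosome 4 and -0.10 at 192 on chromosome 13, against 0.16 at 53618 loci of the genome. At least 1.5-fold higher after doxorubicin were 77 of the 565 cluster loci (13.6%, against 25.9% over the genome). At least 1.5-fold lower were 87 (15.4%, against 10.6% over the genome). Without input regions these shares were 12.6% and 15.4%.

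**Figure D3:**
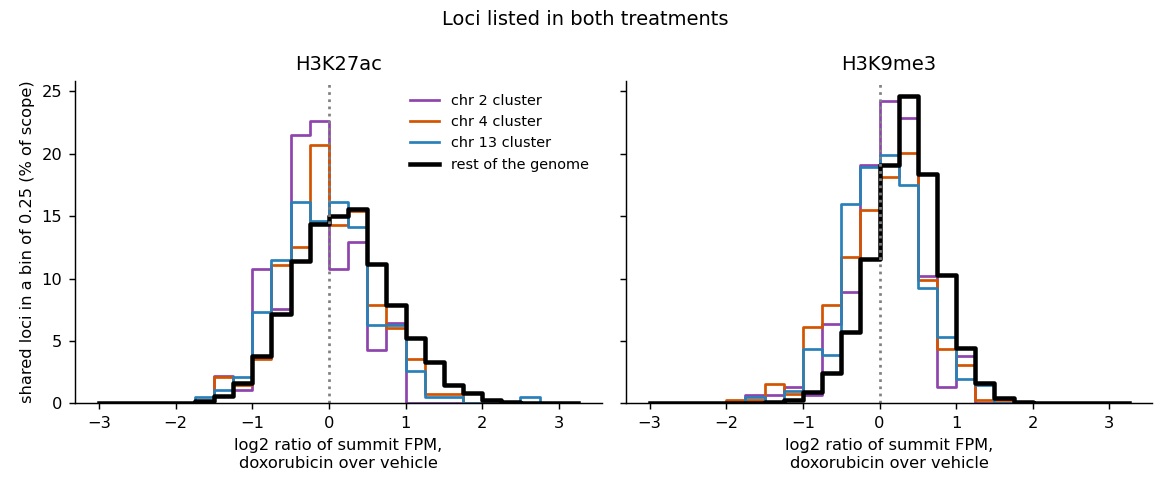
Share of shared loci (y axis, % of each scope, bins of 0.25) against the log2 ratio of summit FPM, doxorubicin over vehicle (x axis), for H3K27ac (left) and H3K9me3 (right) in the 3 clusters and the rest of the genome. The cluster lines lie to the left of the black line of the rest of the genome, whose medians are 0.16 for H3K27ac and 0.34 for H3K9me3.

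The strongest H3K27ac regions lay at different kinds of places in each cluster. On chromosome 4 they included regions in zinc finger genes. The region in Zfp990 had a summit of 8.69 FPM after doxorubicin and 12.8 after vehicle. It was 1969 bp long (chr4:145513443-145515411) after doxorubicin and 8565 bp long (chr4:145509973-145518537) after vehicle. In a region that lies in both Zfp978 and Zfp988, whose annotations overlap, the summit was 9.27 FPM after doxorubicin and 12.6 after vehicle. Both lay over input regions, as did the strongest doxorubicin region, at 9.92 FPM in Gm42346, a gene with a provisional symbol. On chromosome 13 the strongest region of either list lay 5821 bp from the long non-coding RNA gene Gm46429, with 15.6 FPM after doxorubicin and 20.0 after vehicle. It too overlapped an input region. On chromosome 2 the summits were lower, at most 3.76 FPM after doxorubicin (chr2:177073161-177074821, between genes) and 4.65 after vehicle (chr2:177078836-177080980). Those of the protein-coding gene Gm14393 had 3.52 and 4.17 FPM.

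Single loci moved by more than the median. The locus with the lowest H3K27ac ratio on chromosome 4 lay in Zfp990, with 14 fragments after doxorubicin and 47 after vehicle, or 0.822 and 2.28 FPM (log2 ratio -1.47, 95% exact interval -2.45 to -0.58). A locus in Zfp982 had 0.822 FPM after doxorubicin and 2.23 after vehicle (-1.44). On chromosome 2 the lowest ratios were in Gm14322 (0.528 and 1.45 FPM) and Gm14325 (0.528 and 1.36), doxorubicin before vehicle. The highest ratio with an interval above 0 on that chromosome was at the start of Zfp970, with 2.29 FPM after doxorubicin and 1.26 after vehicle (log2 ratio 0.86, 0.11 to 1.64). On chromosome 4 the highest was in the non-coding Gm13165, with 2.05 and 0.630 (1.71), and on chromosome 13 beside Gm52033, with 2.76 and 0.484 (2.51). These loci are the extremes of all shared loci of their cluster and their intervals are not adjusted for that. Of the treatment-only regions with the highest fold enrichment, both doxorubicin-only ones of chromosome 4 lay in Zfp992, at 2.35 and 1.58 FPM. An untagged HA region overlapped both, and an input region the one at 2.35.

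H3K9me3 was dense in all 3 clusters in both treatments. The chromosome 4 window held 510 regions after doxorubicin and 538 after vehicle, where the median of the other 892 windows was 74 after doxorubicin and 58 after vehicle. Of those windows, 1 had as many after doxorubicin and 0 after vehicle. Chromosome 2 held 249 and 234 and chromosome 13 held 278 and 300, which at most 10 other windows reached in either list. Without input regions chromosome 4 had 308 after doxorubicin and 326 after vehicle.

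After doxorubicin the covered length of H3K9me3 was lower in each cluster, while the number of regions differed by less than its counting interval. The mark covered 241.8 kb after doxorubicin and 278.1 kb after vehicle on chromosome 2 (0.869), 622.5 kb and 687.1 kb on chromosome 4 (0.906) and 249.2 kb and 277.7 kb on chromosome 13 (0.898). The whole genome had a ratio of 1.18, and of 557 other windows with at least 50 regions in each list 0, 2 and 1 had ratios as low as those of chromosomes 2, 4 and 13. The ratio of numbers was 1.06 (0.887 to 1.28), 0.948 (0.838 to 1.07) and 0.927 (0.784 to 1.09) in the same order, against 1.30 over the genome. Without input regions the ratio of covered length was 0.916 on chromosome 4 and 0.901 on chromosome 13, and the ratio of numbers 0.945 and 0.926. For this mark too the doxorubicin list had fewer fragments, and the part of that in these ratios was not tested. The median summit of the listed regions was 1.25 FPM after doxorubicin and 1.13 after vehicle.

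Of the 1037 H3K9me3 members after doxorubicin, 148 (14.3%) had no vehicle region, against 34.3% over the genome. Of the 1072 after vehicle, 242 (22.6%) had no doxorubicin region, against 15.6% over the genome. At 756 loci listed in both treatments the median log2 ratio was 0.10, against 0.34 over the genome. At least 1.5-fold higher after doxorubicin were 102 of them (13.5%, against 28.4%), and at least 1.5-fold lower 81 (10.7%, against 2.81%). The median was 0.15 on chromosome 2, 0.09 on chromosome 4 and 0.07 on chromosome 13. The 81 lower loci were 11, 53 and 17 on chromosomes 2, 4 and 13. Without input regions, 16.8% of the cluster regions after doxorubicin and 24.9% of those after vehicle were in that list only. At the 559 shared loci then left the median was 0.15, with 14.5% at least 1.5-fold higher after doxorubicin and 9.48% lower.

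The highest H3K9me3 summits differed little between treatments at Zfp600 and were higher in FPM after doxorubicin at the other strongest regions named below. Shared H3K9me3 loci of the whole genome were also higher after doxorubicin, with a median log2 ratio of 0.34. Zfp600 held a domain of 8298 bp with 20.7 FPM after doxorubicin and one of 10361 bp with 20.4 after vehicle (chr4:146165368-146175728 after vehicle). In Gm42346 the summit was 21.7 FPM after doxorubicin and 17.4 after vehicle, and beside Gm46898 it was 17.5 and 15.9. All of these lay over input regions. The highest domains of chromosome 2 lay in LOC115489542, with 6.39 FPM after doxorubicin and 5.44 after vehicle as the highest summit of each list in that gene. On chromosome 13 the region beside Gm40989 had 9.51 and 6.94, and the one 13573 bp from Gm40985 had 10.6 and 6.63. The lowest ratio of all was in Zfp984, with 12 fragments after doxorubicin and 50 after vehicle, or 0.833 and 3.13 FPM (log2 ratio -1.91, -2.95 to -0.98). The highest of chromosome 13 outside input regions was beside the pseudogene Gm46439, with 4.44 and 1.75 FPM (1.34, 0.68 to 2.04), and a p53 region overlapped it.

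H3K27ac regions overlapped H3K9me3 more often in the clusters than elsewhere. Of them, 44.1% (40.6 to 47.7) overlapped an H3K9me3 region after doxorubicin and 47.2% (43.9 to 50.5) after vehicle. In the rest of the genome the shares were 8.84% after doxorubicin and 8.54% after vehicle. Chromosome 4 had 57.7% and 63.0%, chromosome 13 36.1% and 36.2% and chromosome 2 15.7% and 17.4%, doxorubicin before vehicle. Without input regions chromosome 4 had 37.2% and 39.9%, and the 3 clusters together 30.4% and 31.1%, against 8.20% and 7.66% in the rest of the genome. Of the H3K9me3 regions, 31.7% of those in the clusters overlapped H3K27ac after doxorubicin and 36.1% after vehicle, against 12.6% and 11.7% in the rest of the genome. Chromosome 2 did not share this, with 7.23% (4.62 to 11.1) after doxorubicin and 11.1% (7.70 to 15.8) after vehicle. Without input regions the clusters had 20.0% and 21.7%, against 11.7% and 10.5% in the rest of the genome. H3K9me3 was itself dense in the clusters. After doxorubicin it covered 241.8, 622.5 and 249.2 kb on chromosomes 2, 4 and 13, where the other 3-Mb windows had a median of 76.5 kb. The part of this density in the overlaps was not tested. Pooled cells cannot tell a locus with both marks from a mixture of cells or alleles with 1 mark each.

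H3K27ac in the zinc finger genes lay nearer the start than H3K9me3. A summit lay within 1000 bp of the start for 15.4% (10.5 to 22.1) of the H3K27ac summits after doxorubicin and 16.3% (11.5 to 22.5) after vehicle, in the 43 genes with a known strand. For H3K9me3 the shares were 1.42% (0.485 to 4.10) and 1.33% (0.454 to 3.85). Of the H3K27ac summits, 59.1% lay in the third of the gene nearest its start after doxorubicin and 50.6% after vehicle, and 17.4% and 16.9% in the third farthest from it, where the exon with the zinc finger array usually lies. H3K9me3 was spread evenly, with 33.6% after doxorubicin and 30.7% after vehicle in the third nearest the start and 33.6% and 33.3% in the farthest. Zfp993, whose annotation spans chr4:146512849-146991471, held 41 of the 149 H3K27ac summits after doxorubicin and 42 of the 172 after vehicle. Without this gene, an alternative chosen after seeing the data, 12.0% of the H3K27ac summits after doxorubicin and 12.3% after vehicle lay farthest from the start in that sense, and 36.9% and 35.6% of those of H3K9me3. Several genes of chromosome 4 overlap in the annotation, and a summit there was counted once, for one of the genes.

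H3K27ac was listed over 44 of the 51 genes after doxorubicin (86.3%) and 49 after vehicle (96.1%), against 68.4% and 62.3% of all protein-coding genes. Zinc finger genes outside the clusters had the mark in 82.9% after doxorubicin, near the share in the clusters, and in 81.6% after vehicle. The 5 genes with the mark after vehicle only (9.80%, against 2.80% of all protein-coding genes) were Zfp967 and Zfp968 on chromosome 2, Zfp933 on chromosome 4, and Zfp457 and Zfp58 on chromosome 13. Their vehicle summits were low, from 0.678 FPM in Zfp457 and Zfp968 to 0.969 in Zfp933. That of Zfp967 belonged to a region over its promoter, a near-identical copy of others, so the copy it came from is uncertain. No zinc finger gene of the clusters had H3K27ac after doxorubicin only, against 8.89% of all protein-coding genes. With 49 of the 51 listed after vehicle, few were left that could, so this contrast says little. Zinc finger genes outside the clusters had it after doxorubicin only in 4.99% and after vehicle only in 3.67%. H3K9me3 was listed over 35 genes after doxorubicin (68.6%) and 31 after vehicle (60.8%), against 27.3% and 23.7% of all. Zinc finger genes outside the clusters had it in 36.7% and 32.3%. On chromosome 4 all 17 genes carried it in both treatments. No gene with a zinc finger symbol had it after vehicle only (0 of 51, against 1.84% of all). The 4 genes with it after doxorubicin only (7.84%, against 5.42% of all) were Zfp967, Zfp455, Zfp493 and Zfp85, at 0.903, 1.67, 0.764 and 1.25 FPM. Both marks were over 33 of the genes after doxorubicin and 31 after vehicle. These counts hold for genes chosen by symbol. Of the 42 genes with provisional symbols, 1 (2.38%) had H3K27ac after doxorubicin only and 2 (4.76%) after vehicle only. For H3K9me3 the numbers were also 1 (2.38%) and 2 (4.76%).

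Rsl1 and Rslcan18, members of the chromosome 13 group that includes the regulators of sex-limited liver genes, differed in their marks. Rsl1 had H3K27ac at 1.82 FPM after doxorubicin and 1.45 after vehicle and no listed H3K9me3. Rslcan18 had H3K27ac at 1.58 and 1.70 and H3K9me3 at 1.39 and 1.56. Zfp85 had H3K27ac at 3.23 FPM after doxorubicin and 2.08 after vehicle, and Zfp729a at 4.81 and 5.42. Zfp429 and Zfp966 had neither mark in either list. The Zfp966 promoter is identical to that of Zfp967, where H3K27ac was 0.775 FPM after vehicle, and which copy those reads came from is uncertain.

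At their promoters the zinc finger genes of chromosome 4 had less H3K27ac after doxorubicin. Of 47 promoters of 43 zinc finger genes, 34 overlapped an H3K27ac region after doxorubicin and 40 after vehicle. The mark was in the vehicle list alone at 7 (14.9%, against 4.88% of all promoters) and in the doxorubicin list alone at 1 (2.13%, against 5.78%). With 40 of the 47 listed after vehicle, few were left that could be in the doxorubicin list alone. Both lists had the mark at 33 promoters, with a median log2 ratio of -0.19, against -0.03 over all 8902 such promoters. At least 1.5-fold lower after doxorubicin were 7 (21.2%, against 14.3%) and at least 1.5-fold higher 2 (6.06%, against 14.8%). On chromosome 4 the median at 11 promoters was -0.51 and 5 of the 7 lower ones lay there (45.5% of the 11). Of all genes in that window, 19 promoters were in both lists, with a median of -0.29 and 8 lower (42.1%). The lower ones outside zinc finger genes were overlapping entries of Mfn2, with 2.58 FPM after doxorubicin and 4.75 after vehicle (-0.88, -1.43 to -0.35). On chromosome 13 the median of the zinc finger genes was -0.16 at 19 promoters, with 2 lower. On chromosome 2, where most promoters are near-identical copies, it was 0.58 at 3 promoters, with 1 higher and 0 lower.

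The 5 lower zinc finger promoters of chromosome 4 were those of Zfp534, Zfp988, Rex2, Zfp984 and Zfp981. Zfp534 had 2.11 FPM after doxorubicin and 5.13 after vehicle, a log2 ratio of -1.28 (-1.87 to -0.72). Rex2 had 3.46 and 6.39 (-0.88, -1.35 to -0.43) and Zfp984 had 6.10 and 10.1 (-0.73, -1.08 to -0.38). Zfp988 had 1.35 and 2.57 (-0.93, -1.70 to -0.20) and Zfp981 had 4.34 and 6.54 (-0.59, -1.02 to -0.17). The intervals lay below 0 at all 5. An input region overlapped the promoters of Rex2 and Zfp984, at 1.21 and 1.09 FPM, and none overlapped those of Zfp534, Zfp988 and Zfp981. The Rex2 promoter shared 97.6% of its 50-base words with another promoter and that of Zfp534 46.2%. Zfp953 on chromosome 13 had 0.998 FPM after doxorubicin and 1.89 after vehicle (-0.92, -1.84 to -0.06). Zfp874a had 3.29 and 2.18 (0.59, 0.00 to 1.19). At Zfp993 and at the later start of Zfp600 the vehicle region that gave the vehicle-only call also covered a neighbouring promoter. That promoter was listed in both treatments, Zfp981 beside Zfp993 and the first Zfp600 start (3.29 and 4.02 FPM).

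**Figure D4:**
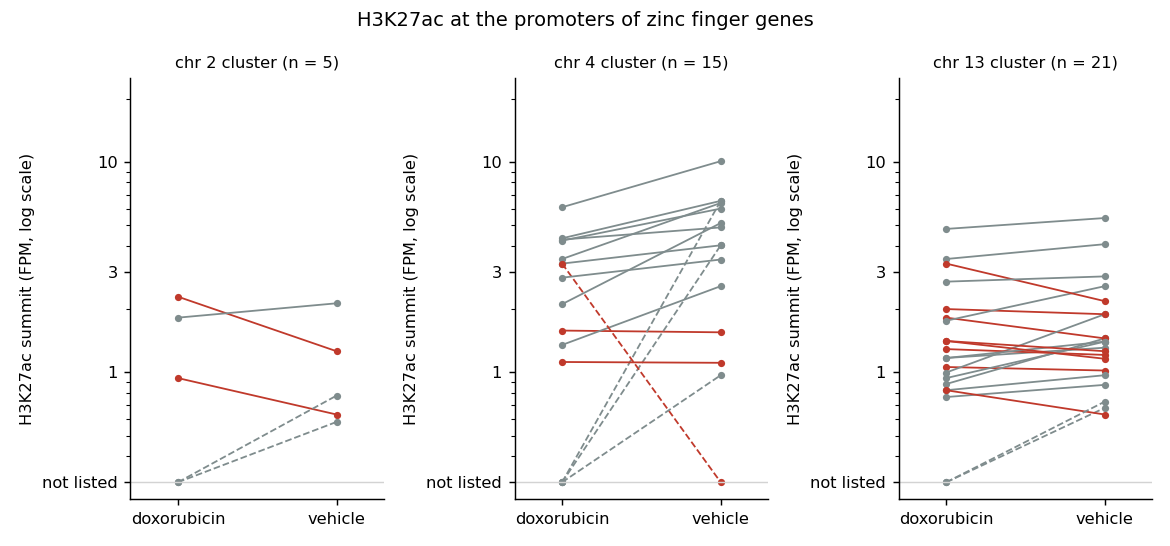
H3K27ac summit in FPM (y axis, log scale) at the promoters of zinc finger genes in each cluster, with doxorubicin at the left and vehicle at the right; each line is 1 promoter, red where doxorubicin is higher and grey where vehicle is higher, dashed where only 1 list has a region ("not listed"). On chromosome 4 most lines rise towards vehicle, and the 11 promoters in both lists have a median log2 ratio of -0.51.

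H3K9me3 was listed at 8 of the 47 zinc finger promoters in each treatment (17.0%). Of these 8, 7 lay on chromosome 4 (of 16, 43.8%), 1 on chromosome 13 (of 24) and 0 on chromosome 2 (of 7). Over all promoters the share was 2.19% after doxorubicin and 1.67% after vehicle. One start of Zfp982 had 5.07 FPM after doxorubicin and 1.69 after vehicle, and Zfp984 had 3.61 and 4.25 next to its H3K27ac.

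The p53 list had 54 regions in the clusters, 4 on chromosome 2, 14 on chromosome 4 and 36 on chromosome 13. Only 5 of the 892 other windows had as many as chromosome 13, and the median was 12. Of the chromosome 4 regions, 11 overlapped an untagged HA region and 7 an input region. Of those on chromosome 13, 10 and 2 did so, against 3.70% and 1.76% of all p53 regions. The fold enrichment over input, as the authors' caller gave it, had a median of 8.34 on chromosome 13 and 2.59 on chromosome 4.

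The p53 regions of chromosome 13 lay mostly between zinc finger genes, among pseudogenes and long non-coding RNA genes. The strongest, chr13:66585938-66586470, had a fold enrichment of 65.2 and lay 2849 bp from Gm45966 and 83954 bp from Zfp640. It had H3K27ac at 0.763 FPM and H3K9me3 at 1.04 after doxorubicin, and neither was listed after vehicle. The next, chr13:66732483-66733283, had a fold enrichment of 65.0. H3K27ac there was 2.76 FPM after doxorubicin and 0.484 after vehicle, a log2 ratio of 2.51 (1.51 to 3.66) and the largest of any locus in the clusters. H3K9me3 at the same place was 1.32 and 1.19. At chr13:65845425-65845962, with a fold enrichment of 43.7, H3K27ac was 2.64 after doxorubicin and 1.11 after vehicle, and H3K9me3 1.53 and 0.688. At chr13:66080566-66081256, with 42.4, H3K27ac was listed after doxorubicin only, at 2.11. None of these 4 overlapped an untagged or input region.

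H3K27ac was listed at 30 of the 36 chromosome 13 p53 regions after doxorubicin (83.3%, 68.1 to 92.1) and at 25 after vehicle (69.4%, 53.1 to 82.0). Over all p53 regions the shares were 72.3% and 42.9%. The mark was in the doxorubicin list only at 6 (16.7%, against 30.0%) and in the vehicle list only at 1 (2.78%, against 0.594%). More of these regions than of all p53 regions already had it after vehicle, which leaves fewer that could be doxorubicin only. Of those without it after vehicle, 6 had it after doxorubicin and 5 had it in neither list. In the rest of the genome these numbers were 3369 and 3055. At 24 regions with it in both lists the median log2 ratio was 0.73, with 13 at least 1.5-fold higher after doxorubicin (54.2%, against 74.5%) and 1 lower (4.17%, against 1.82%). Without the regions over an untagged region, the median was 0.58 at 17 regions. The exception was beside 2410141K09Rik, where H3K27ac was 2.99 FPM after doxorubicin and 5.38 after vehicle (-0.84, -1.35 to -0.35). The shared H3K27ac loci of chromosome 13 that overlapped a p53 region had a median log2 ratio of 0.59 (24 loci). The other 168 had a median of -0.15. Over the genome these medians were 0.99 and 0.11.

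**Figure D5:**
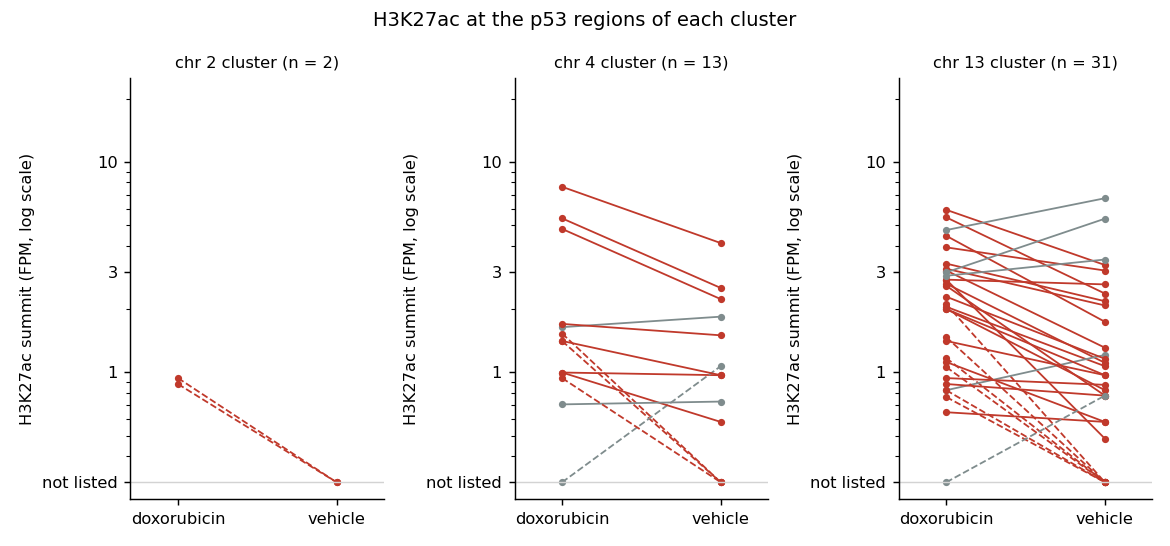
H3K27ac summit in FPM (y axis, log scale) at the p53 regions of each cluster that had the mark in at least 1 list, with doxorubicin at the left and vehicle at the right; each line is 1 region, red where doxorubicin is higher and grey where vehicle is higher, dashed where only 1 list has a region. On chromosome 13 the lines fall towards vehicle at most regions, and H3K27ac was listed at 30 of 36 after doxorubicin and 25 of 36 after vehicle.

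H3K9me3 was listed at 21 of the 36 after doxorubicin (58.3%) and 16 after vehicle (44.4%), against 25.2% and 20.0% of all p53 regions. It was in the doxorubicin list only at 5 (13.9%, against 5.82%) and in the vehicle list only at 0 (against 0.665%). At the 16 regions in both lists the median log2 ratio was 0.32, with 3 at least 1.5-fold higher after doxorubicin (18.8%, against 40.9%) and 2 lower (12.5%, against 1.56%). Few p53 regions lay in zinc finger genes. On chromosome 13 they were in Zfp874a, with a fold enrichment of 8.03, and in Zfp953, with 3.15, and no promoter window of the clusters overlapped a p53 region. On chromosome 4 the regions in Zfp978 and Zfp992 had fold enrichments of 1.90 to 3.71 and all overlapped untagged regions. The one at 3.71 also lay in Zfp991, whose annotation overlaps that of Zfp978. The strongest of chromosome 4, chr4:146497359-146498355 in the pseudogene Vmn2r-ps16, had 57.2 and overlapped both an untagged and an input region. Its H3K27ac was 7.63 FPM after doxorubicin and 4.12 after vehicle. The 4 regions of chromosome 2 had fold enrichments of 4.81 to 6.10. All of them had H3K9me3 in both treatments, and 2 had H3K27ac after doxorubicin only.

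The genes of the KRAB silencing machinery all carried H3K27ac in both treatments. At the 11 genes listed, highest summits ran from 1.82 to 6.75 FPM after doxorubicin and from 1.31 to 9.25 after vehicle. Trim28, the corepressor bound by KRAB domains, had 2.11 and 3.29, and Setdb1, its H3K9 methyltransferase, 1.94 and 3.83. Uhrf1, needed for maintenance of DNA methylation, had 3.76 and 7.07, and Cbx5, which encodes an HP1 protein, 3.99 and 6.49. These 4 were at least 1.5-fold lower after doxorubicin, against 10.3% of protein-coding genes. Higher by as much were Cbx1, another HP1 gene, Dnmt1 and Morc3, 3 genes against 24.1% of all. A p53 region lay at Dnmt1, at Morc3 and at Atf7ip, where H3K27ac was 2.88 FPM after doxorubicin and 2.86 after vehicle. Embryonic stem cell markers carried the mark at 7 of 7 genes in both treatments, from 3.29 to 11.7 FPM after doxorubicin and from 4.31 to 11.8 after vehicle. Their median log2 ratio was -0.22. Of the 7, 1 was at least 1.5-fold lower after doxorubicin, Zfp42 with 3.29 and 6.68 FPM (-1.02), and 0 were as much higher. Of 5 fibroblast markers, 3 were listed after doxorubicin and 1 after vehicle, at no more than 1.06 FPM, and Col1a2 and Col3a1 in neither list.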

How the data were processed

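The deposited data are 7 narrow-peak lists. Reads were aligned with Bowtie2 2.2.6 and peaks called with MACS2 2.2.5, per the submitters' processing notes, on mm10 with an added contig, from read pairs, duplicates reduced to 1 and the q threshold 0.05, as the file headers record. Each list pools 2 libraries. Histone and input lists were called without control against a genome-wide background. The HA lists were called against the input, p53 with a local and untagged with a genome-wide background, per the file headers. The deposited signal is the pileup at a summit, the deposited fold enrichment is its ratio to the background, and the deposited −log10 q was used only in alternatives. Lengths, in bp, are as deposited.

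Summits of an interval were joined into 1 region with the values of its highest. Pileups were divided by the kept fragments of their list and multiplied by 1000000; HA pileups had been scaled to the input and used its fragments. Overlap meant at least 1 bp, and called meant 1.5-fold. Shares have Wilson intervals; ratios of counts or pileups have exact (Clopper-Pearson) intervals. Genes, starts and promoter sequences were from RefSeq (GRCm38.p6). Zinc finger genes were chosen by symbol (Zfp, Zscan, Zkscan, Rsl, Rex2), since no protein table was used here. Named regions were, per cluster and mark, the 3 of highest fold in each treatment, the 2 such treatment-only regions per direction, the 2 highest and 2 lowest ratios, and the strongest p53 regions; of these some are described, and other named genes were chosen after their values were seen. The members and lists were chosen with earlier results of these data known. Both p53 titles carry the same replicate number. On simulated data, 0 of 20000 overlaps differed from those of bedtools 2.31.1. Python 3.11.15, numpy 2.4.6, pandas 2.3.3, scipy 1.17.1 and matplotlib 3.10.9 were used.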

Additional observations from a re-analysis of the deposited data

Results flagged for a closer look

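The input and untagged HA lists, which are not an arm of the treatment comparison, had regions inside the clusters. The chromosome 4 window held 322 input regions and 464 untagged HA regions. The chromosome 13 window held 59 input regions and 135 untagged HA regions. They stand out because neither library was enriched for a histone mark or for tagged p53. The part of this signal in the histone values was not tested. Values without input regions stand beside the results for regions and shared loci, but not those for genes, positions in genes or promoters. An untagged HA region overlapped 65.2% of the chromosome 4 H3K27ac regions after doxorubicin and 68.6% after vehicle. For H3K9me3 the shares were 62.9% and 61.0%. Histone values without untagged HA regions were computed only among the alternatives below.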

How the results depend on the processing

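No paired analysis was possible because the lists were called on pooled libraries, and for that reason no replicate could be left out. Of 243 recomputed values, 218 stayed within the counting interval or within 1.5 times of the reported value, and 25 moved further. The direction turned in 11, each at a ratio of numbers whose interval included 1 or at a median under 1.5-fold. The ratio of covered length stayed below 1 for both marks in all clusters under all 54 alternatives, from 0.615 to 0.95. The ratio of H3K27ac numbers was below 1 in 26 of 27, the exception being chromosome 4 with at least 1 FPM (1.17), where the median log2 ratio was -0.19. With equal list lengths the H3K9me3 ratio of numbers was 0.791 on chromosome 2 and 0.822 on chromosome 4, and 85 H3K9me3 regions were doxorubicin only. Centred on the genome median, the log2 medians of chromosomes 2, 4 and 13 were -0.31, -0.17 and -0.26 for H3K27ac and, now below 0, -0.19, -0.25 and -0.28 for H3K9me3. The H3K27ac median of chromosome 4 lay between 0.01 and 0.03 under 4 alternatives, and the H3K9me3 ratio of numbers was just above 1 on chromosome 4 on merging and on chromosome 13 with at least 1 FPM (1.03). Merging within 1000 bp gave 80 doxorubicin-only and 155 vehicle-only H3K27ac regions, and 92 and 120 for H3K9me3. Wider windows gave 200 doxorubicin-only H3K27ac regions. Vehicle-only H3K27ac regions numbered 177 at −log10 q of at least 5, 103 with at least 1 FPM and 168 without untagged regions, an alternative added after seeing the data. Vehicle-only H3K9me3 regions numbered 137 with at least 1 FPM. The p53 regions of chromosome 2 numbered 10 in wider windows. Those of chromosome 4 numbered 7 at −log10 q of at least 5, 4 at a fold of at least 4, 7 without input regions and 3 without untagged regions.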
